A study of Mus musculus with 10 samples.

Results

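Of the 54532 genes in the count table of mouse lung fibroblast cultures, 52 encode ligands, receptors, inhibitors and effectors of Wnt signalling. They were taken by gene name, and each name matched 1 row. The cells were primary fibroblasts from mouse lung, grown in DMEM with 10% fetal bovine serum and antibiotics and sampled at baseline, without added treatment. The 5 wild-type libraries were compared with 5 labelled Mrc2 knockout. Mrc2 encodes an endocytic receptor that takes up collagen, and the title of the series asks about proliferation in its absence. The sources used here do not state the knockout allele, the strain, or the age and sex of the mice. The titles number the libraries of a genotype as biological replicates without naming animals or cultures, so p-values measure the spread between these libraries, which may be technical.

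Wnt proteins are lipid-modified by Porcn, carried to the cell surface by Wls and bound by Frizzled receptors. With the co-receptors Lrp5 and Lrp6 they stabilise beta-catenin, which activates genes through the TCF and LEF factors, while Ror1, Ror2 and Ryk serve branches that need no beta-catenin. R-spondins act through Lgr receptors to shield Frizzleds from the ubiquitin ligases Znrf3 and Rnf43, and Sfrp and Dkk proteins block ligands or co-receptors. In the lung, mesenchymal Wnt2, Wnt5a and R-spondins are known signals to the epithelium and among fibroblasts.

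Of the 52 genes, 40 had enough reads to be tested and 12 did not. No member passed edgeR's quasi-likelihood test at a Benjamini-Hochberg adjusted p under 0.05 over all 14360 genes tested, where 0.0139% of all genes passed. Without adjustment 7 members had p under 0.05, or 17.5% of those tested, where the share over all genes was 13.3%. All 7 were higher in knockout (in order of p, Ror1, Lgr4, Apcdd1, Lrp6, Ror2, Fzd4 and Fzd5), where 7.19% of all genes were higher and 6.1% lower at that p. Of the 7, 2 were among the 8 Frizzleds tested, 3 among the 5 co-receptors, 1 among the 6 genes of the R-spondin axis, 1 among the 5 inhibitors and 0 among the 7 ligands; differences between these roles were not tested. The median log2 fold change of the 40 members was 0.29, with 29 above 0 and 11 below, and that of all genes tested was -0.01, with 6957 above and 7403 below.

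Total counts per library ran from 19603933 to 29944615, so that 3 counts stood for 0.1 to 0.153 CPM (counts scaled to the size of the library). Wild-type libraries had 843 ± 176 CPM of Mrc2 and knockout libraries 242 ± 30.4 CPM (SD, n = 5 each), a log2 fold change of -1.80 with an SE of 0.17 and an adjusted p of 0.0029 by edgeR. Every knockout library was below every wild-type library. The 10 fibroblast markers summed to 15805 to 27633 CPM in wild type and 22686 to 40542 CPM in knockout. The 8 leukocyte markers, led by the lysozyme gene Lyz2, summed to 2272 to 11175 CPM and 2719.8 to 6024 CPM. The 6 mesothelial markers summed to 115 to 598 CPM and 90.8 to 293 CPM, the 8 markers of smooth muscle and pericytes to 3670.0 to 11928 CPM and 6827 to 12025 CPM, the 10 epithelial markers to 6.74 to 58.9 CPM and 6.27 to 19.2 CPM, and the 7 endothelial markers to 6.43 to 15.6 CPM and 6.98 to 12.9 CPM. Of the epithelial markers, Epcam, Nkx2-1, Sftpc, Sftpb, Scgb1a1 and Cldn4 had at most 4 counts in any library. Foxj1 had 0 to 10 counts, and Cdh1 had 8 to 31 and was tested. Krt8 and Krt18 made 81.3% to 98.4% of the epithelial sum. Of the tested markers, 7 of 10 fibroblast, 6 of 8 smooth muscle and pericyte, 3 of 5 endothelial, 1 of 8 leukocyte, 1 of 3 epithelial and 0 of 6 mesothelial genes lay above 0 on the log2 scale, and 0 passed edgeR's test. The collagen gene Col3a1, a fibroblast marker, was called by DESeq2 (adjusted p = 0.0186) and by edgeR without knockout replicate 5 (adjusted p = 0.0457). Both of these fits also called Ror1, as given below. In such bulk samples fewer cells of a type and less RNA per cell cannot be told apart. All 10 libraries carry 1 batch label, and their library names are numbered in separate runs by genotype, with knockout replicate 5 apart from the other knockouts.

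The sequences directly upstream of Ror1, Ror2 and Fzd5 are shown because Ror1 was the member with the smallest p, Ror2 is its closest relative in the list, and Fzd5 was the member whose groups did not overlap. They are from RefSeq, build GRCm38.p6, 250 bases up to the annotated start, read 5′ to 3′ on the gene's strand, and capitals mark GGGCGG on either strand (a GC box). Ror1 lies on the plus strand (chr4:100095541-100095790), Ror2 on the minus strand (chr13:53286125-53286374) and Fzd5 on the minus strand (chr1:64737751-64738000).
Ror1: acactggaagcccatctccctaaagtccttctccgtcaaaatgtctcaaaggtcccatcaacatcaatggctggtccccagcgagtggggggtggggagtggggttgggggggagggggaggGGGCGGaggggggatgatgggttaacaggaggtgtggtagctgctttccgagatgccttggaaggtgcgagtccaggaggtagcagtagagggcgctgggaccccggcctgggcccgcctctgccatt
Ror2: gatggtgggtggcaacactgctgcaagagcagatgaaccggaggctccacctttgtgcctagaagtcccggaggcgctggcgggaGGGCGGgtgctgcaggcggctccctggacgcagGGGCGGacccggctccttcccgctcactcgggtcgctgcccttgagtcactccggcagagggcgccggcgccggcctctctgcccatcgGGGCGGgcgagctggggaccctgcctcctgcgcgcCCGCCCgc
Fzd5: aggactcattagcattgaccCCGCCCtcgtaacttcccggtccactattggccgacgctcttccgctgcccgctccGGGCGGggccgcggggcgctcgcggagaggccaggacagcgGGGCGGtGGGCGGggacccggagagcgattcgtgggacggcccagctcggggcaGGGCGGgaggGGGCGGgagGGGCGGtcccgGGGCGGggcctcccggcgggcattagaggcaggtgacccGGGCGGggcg
The window of Ror1 held 1 GC box and 8 CpG pairs at 62.4% G and C, that of Ror2 held 4 boxes and 24 pairs at 73.2%, and that of Fzd5 held 9 boxes and 32 pairs at 76.4%. A GC box was in 29 of the 44 windows of 34 matched members (65.9%) and in 32.7% of all 32851 windows of this length. Some genes had more than 1 window, and the windows were not matched for G and C content, so what these shares reflect was not tested. For 34 of the 44 member windows, bases just after the start were found in a transcript of the gene on the same strand.

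The core of the TCF and LEF motif, searched as CTTTGAT or CTTTGAA on both strands, was absent from those 3 windows. It was in 3 of the 44 member windows (6.82%) and in 7.48% of all windows, and in the Wnt11 window a GC box directly precedes the match without overlapping it. The 3 matches are shown with 10 bases on each side and the motif in capitals, since they are the places in these windows where the letters occur. The match for Wnt5b (chr6:119449441-119449467, minus strand) starts 71 bases before the RefSeq transcript start of its window, that for Wnt11 (chr7:98835051-98835077, plus strand, motif on the opposite strand) 51 bases and that for Dkk1 (chr19:30549597-30549623, minus strand) 117 bases. By the coordinates in the count table the matches for Wnt5b and Dkk1 lie inside the gene, since RefSeq places these transcript starts further in, and that for Wnt11 lies before it.
Wnt5b: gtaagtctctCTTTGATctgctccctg
Wnt11: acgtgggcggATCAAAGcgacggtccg
Dkk1: cctcccaaagCTTTGAAatcccatccc
Wnt5b and Wnt11 were low in all libraries, and Dkk1 had at most 2 counts in any. A match here describes letters and not binding, which was not measured.

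Levels of different genes were compared as CPM per kilobase of the gene length in the table. On that scale 10 members had a mean of at least 10 over all libraries and 29 of at least 1. The order was led by Sfrp1 (122), Ctnnb1 (69.6), Ryk (55.5), Wls (41.4), Fzd1 (38.3), Dkk3 (37.6), Rspo3 (32.9), Fzd7 (31.3), Fzd2 (26.9) and Axin1 (12.9). The spread of Sfrp1 was so wide (79.8 ± 58.1 CPM per kilobase in wild type and 164 ± 139 in knockout; SD, n = 5 each) that its place above Ctnnb1 (65.6 ± 8.85 and 73.5 ± 12.4) was within error. From Wls to Fzd2 each gene differed from the next in the order by no more than the SD of at least 1 of them in each group, while Fzd2 (24.3 ± 6.18 and 29.4 ± 2.20) and Axin1 (12.6 ± 0.634 and 13.3 ± 0.824) were further apart than that.

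**Figure D1:**
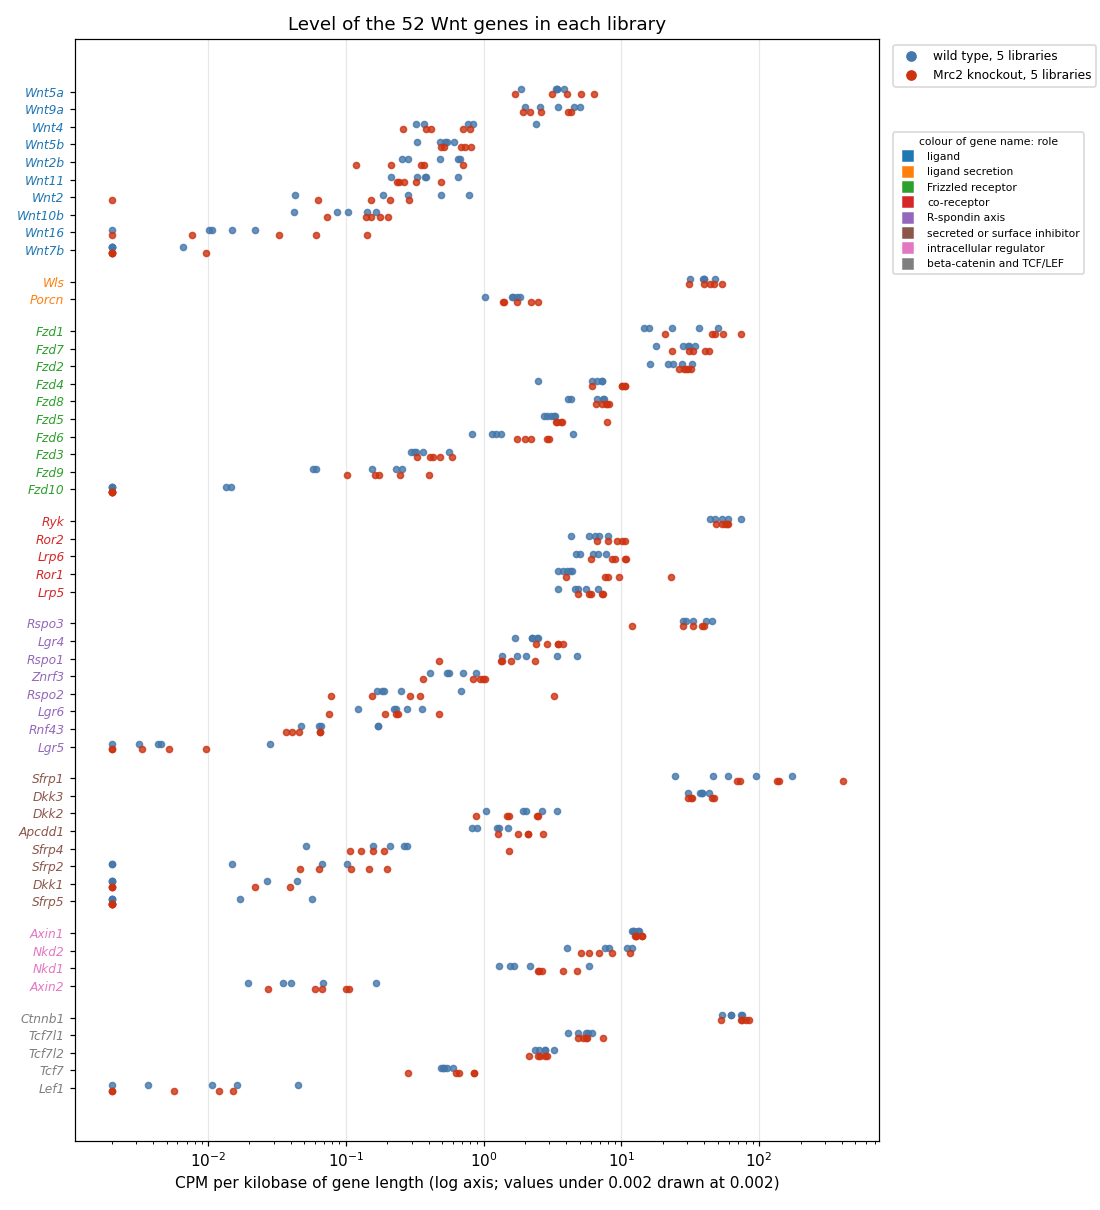
Level of each of the 52 Wnt genes in CPM per kilobase of gene length (log axis), 1 point per library, wild type in blue and Mrc2 knockout in red, grouped by role, with gene names coloured by role; values under 0.002 are drawn at 0.002. Sfrp1, Ctnnb1 and Ryk have the highest means (122, 69.6 and 55.5), and the genes with few reads lie at the left.

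Wnt5a and Wnt9a had the highest ligand levels per kilobase. Wnt5a, a ligand best known for signalling without beta-catenin, and Wnt9a together made 62.0% to 82.5% of the summed CPM per kilobase of the 10 ligands in wild type and 65.3% to 82.4% in knockout. Wnt5a was at 26.4, 26.6, 26.7, 30.1 and 14.5 CPM in wild-type replicates 1 to 5 and at 49.8, 31.6, 40.1, 24.6 and 13.2 CPM in knockout replicates 1 to 5. Replicate 5 was the lowest library of each group, and the groups overlapped (log2 fold change 0.36, SE 0.31, adjusted p = 0.590 by edgeR). The value was 0.13 without knockout replicate 1, 0.20 without wild-type replicate 5 and 0.55 without knockout replicate 5. Wnt9a was at 11.7 ± 4.22 and 10.1 ± 3.75 CPM (SD, n = 5 each; change on the log2 scale -0.21, SE 0.30, adjusted p = 0.748 by edgeR). Knockout replicate 1 differed in its mix, with 59.5% Wnt5a and 18.0% Wnt9a of the ligand sum, where the other 9 libraries had 28.4% to 46.8% and 32.3% to 44.9%.

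The other ligands were low. Wnt4, Wnt5b, Wnt2b, Wnt11 and Wnt10b had group means of 0.366 to 3.94 CPM and log2 fold changes of -0.85 to 0.48, and the lowest adjusted p of any ligand by edgeR was 0.477 (Wnt4). Wnt4 was at 10.1 CPM in wild-type replicate 4 and at 1.10 to 3.50 CPM in the other 9 libraries. That library also had the highest sum of mesothelial markers (598 CPM) and was the highest of its group for 5 of the 6 mesothelial genes, whose part in this value was not tested. Its sum of epithelial markers was also the highest (58.9 CPM), and Krt8 and Krt18, keratins that mesothelium also makes, were 98.4% of it. Without that library the log2 fold change of Wnt4 was -0.15. Wnt2, a ligand of the lung mesenchyme, had 0 to 37 counts per library, Wnt16 0 to 18 and Wnt7b, known from lung epithelium, 0 to 1, and these 3 were not tested. For Wnt5b reads may be shared with the overlapping gene Fbxl14, since the strand setting of the counting was not given.

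Porcn and Wls, needed to secrete any Wnt, differed by less than the spread between libraries. Wls was at 352, 353, 345, 422 and 277 CPM in wild type and at 413, 389.9, 470.0, 348 and 271 CPM in knockout, with overlap and replicate 5 lowest in both groups (log2 fold change 0.12, SE 0.16, adjusted p = 0.741 by edgeR). Porcn differed by 0.24 on the log2 scale (SE 0.22, adjusted p = 0.627 by edgeR).

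All 8 tested Frizzled genes had a log2 fold change above 0, between 0.27 and 0.79 with a median of 0.35, and 0 passed over all genes. Every Frizzled tested was also above 0 in each of the 18 alternative fits but that without a low-count filter, where 9 of 10 were. Fzd1, Fzd7 and Fzd2 supplied 80.6% to 83.9% of the summed Frizzled CPM per kilobase in wild type and 79.2% to 85.2% in knockout, and the sum itself was 61.3 to 122 in wild type and 92.1 to 170.0 in knockout. Fzd1, with the highest mean over all 10 libraries (in wild type alone Fzd7 was level with it, at 28.4 against 28.1 CPM per kilobase), was at 97.8, 210.5, 61.8, 153 and 66.8 CPM in wild type and at 189.6, 201, 310.1, 231 and 87.5 CPM in knockout. Its groups overlapped through wild-type replicate 2 and knockout replicate 5 (log2 fold change 0.79, SE 0.38, adjusted p = 0.392 by edgeR).

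Fzd4, also the receptor of the non-Wnt ligand norrin, was at 40.9, 48.4, 49.0, 44.8 and 16.7 CPM in wild type and at 68.4, 71.1, 68.1, 71.5 and 40.9 CPM in knockout. Knockout replicates 1 to 4 lay above every wild-type library, and replicate 5 was the lowest of each group (log2 fold change 0.68, SE 0.26, unadjusted p = 0.0239 and adjusted p = 0.343 by edgeR). Fzd5 was at 19.0, 22.4, 19.9, 22.8 and 21.2 CPM in wild type and at 54.3, 23.6, 25.5, 23.3 and 25.1 CPM in knockout. All 5 knockout libraries lay above all 5 wild-type libraries, by 0.53 on the log2 scale (SE 0.23, unadjusted p = 0.0392 and adjusted p = 0.359 by edgeR). Fzd5 was the 1 member of 40 without overlap, where 2.05% of all genes tested had none, 0.961% being higher and 1.09% lower in knockout. Its size rested on knockout replicate 1, and without that library the log2 fold change was 0.21 (edgeR adjusted p = 0.598).

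The remaining Frizzleds overlapped between groups. Fzd2, Fzd3, Fzd6, Fzd7 and Fzd8 had log2 fold changes of 0.27 to 0.39 with edgeR adjusted p-values of 0.439 to 0.667. Fzd6 was at 21.6 CPM in wild-type replicate 4, the library with the most mesothelial marker counts, and at 3.98 to 14.3 CPM in the other 9, and its log2 fold change was 1.04 without that library. Fzd9 (3 to 27 counts per library) and Fzd10 (0 to 1) were not tested.

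In mm10 Fzd4 lies on chromosome 7 (89404355 to 89413134, plus strand), Fzd5 on chromosome 1 (64730558 to 64737751, minus strand), Lrp6 on chromosome 6 (134446476 to 134566965, minus strand) and Ror2 on chromosome 13 (53109312 to 53286124, minus strand). Lgr4 lies on chromosome 2 (109917647 to 110014257, plus strand) and Apcdd1 on chromosome 18 (62922327 to 62953195, plus strand). Each is annotated as protein-coding.

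**Figure D2:**
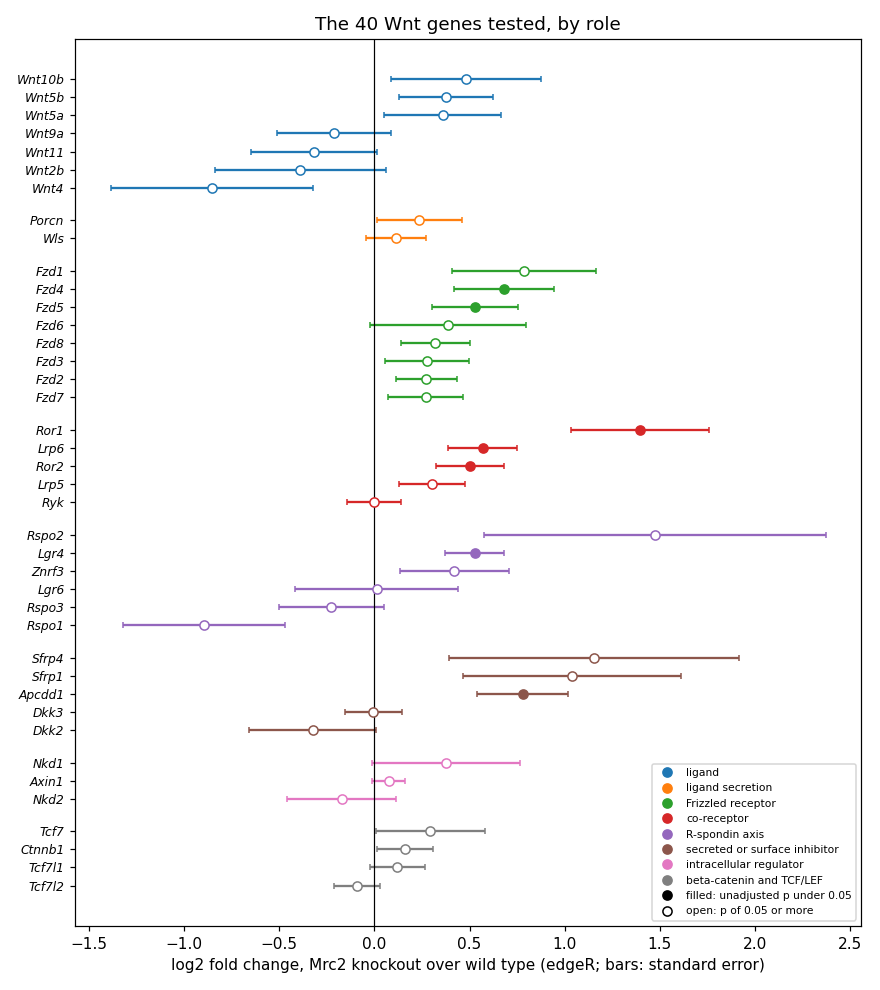
Log2 fold change of Mrc2 knockout over wild type for the 40 Wnt genes tested, grouped by role, with the standard error from edgeR as bars; filled points have an unadjusted p under 0.05. The 7 filled points lie at 0.50 to 1.39, and all 8 Frizzled points lie right of 0.

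The co-receptors included the member with the smallest p. Ror1, a receptor tyrosine kinase-like protein that binds Wnt5a (ENSMUSG00000035305, a protein-coding gene on the plus strand of chromosome 4 at 100095791 to 100444765 in mm10), was at 19.8, 24.6, 21.9, 23.1 and 25.1 CPM in wild type. In knockout it was at 132, 44.1, 55.9, 46.1 and 23.0 CPM. Knockout replicates 1 to 4 lay above every wild-type library, replicate 1 far above the others, while replicate 5 lay among the wild-type values. The log2 fold change was 1.39 (SE 0.36, a 2.63-fold ratio), with an unadjusted p = 0.00248 and an adjusted p = 0.234 by edgeR.

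Whether Ror1 was called depended on the tool and the libraries. DESeq2 called it (adjusted p = 0.0164), as the only member, where it called 1.69% of all genes. EdgeR called it without knockout replicate 5 (log2 fold change 1.60, adjusted p = 0.0440), again as the only member, where 1.39% of all genes passed. Limma-voom did not (adjusted p = 0.308), and it called 0.00696% of all genes. Without knockout replicate 1 the log2 fold change was 0.88 (edgeR adjusted p = 0.397).

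Ror2, the paralogue of Ror1 and likewise a Wnt5a receptor, was at 24.6, 29.4, 27.2, 34.2 and 18.2 CPM in wild type and at 28.2, 39.2, 42.6, 45.3 and 34.0 CPM in knockout. Each knockout library was above the wild-type mean, and the groups overlapped (log2 fold change 0.50, SE 0.18, unadjusted p = 0.0155 and adjusted p = 0.331 by edgeR). The ratio of Ror1 to Ror2, in CPM per kilobase, was 0.496 to 1.02 in wild type and 0.499 to 0.966 in knockout replicates 2 to 5, and 3.44 in knockout replicate 1. The knockout library with the most Ror1 was thus the one with the least Ror2.

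Lrp6, which carries the Wnt signal to beta-catenin, was at 84.6, 107, 64.0, 92.7 and 68.3 CPM in wild type and at 149, 117, 146, 123 and 82.7 CPM in knockout. Knockout replicates 1 to 4 lay above all wild-type libraries and replicate 5 within them (log2 fold change 0.57, SE 0.18, unadjusted p = 0.00924 and adjusted p = 0.298 by edgeR). Its homologue Lrp5 differed by 0.30 on the log2 scale (SE 0.17, adjusted p = 0.449 by edgeR). Ryk, an atypical kinase receptor and the most abundant co-receptor, was at 243, 198, 336, 268 and 217 CPM in wild type and at 246, 221, 265, 257 and 268 CPM in knockout, with full overlap. Its log2 fold change was -0.0047 (SE 0.14, adjusted p = 0.990 by edgeR), and its sign turned in 6 alternative fits.

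**Figure D3:**
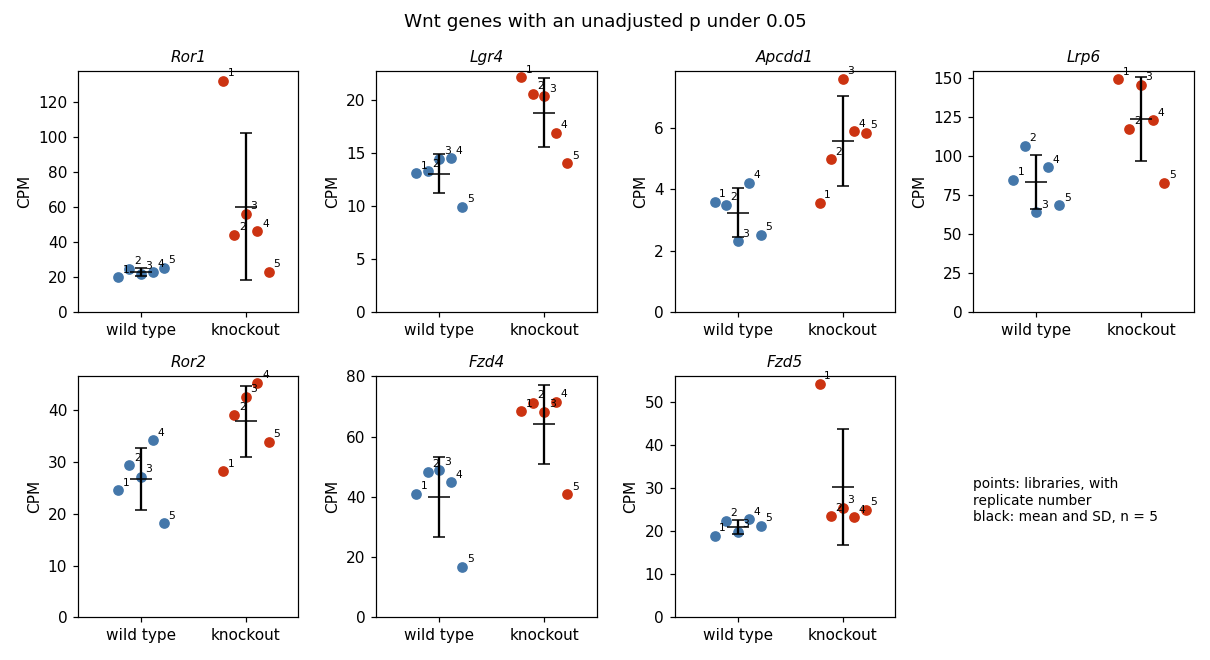
CPM of the 7 Wnt genes with an unadjusted edgeR p under 0.05 in each wild-type (blue) and Mrc2 knockout (red) library, labelled with the replicate number; black marks show the mean and SD (n = 5). Knockout replicate 5 is the lowest knockout library for Ror1, Lgr4, Lrp6 and Fzd4, and knockout replicate 1 the highest for Ror1, Lgr4, Lrp6 and Fzd5.

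In the R-spondin axis Lgr4 had the smallest p. Lgr4, the R-spondin receptor of many tissues, was at 13.1, 13.3, 14.5, 14.5 and 9.94 CPM in wild type and at 22.2, 20.6, 20.4, 16.9 and 14.1 CPM in knockout. Knockout replicates 1 to 4 were above all wild-type values and replicate 5 (14.1 CPM) was not (log2 fold change 0.53, SE 0.16, unadjusted p = 0.00552 and adjusted p = 0.268 by edgeR). Lgr6 had a log2 fold change of 0.01 (SE 0.43), with a sign that turned in 7 alternative fits. Lgr5, the stem cell marker of the family, had 0 to 6 counts per library and was not tested.

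Rspo3 was the main R-spondin, at 141, 102, 86.4, 127 and 91.2 CPM in wild type and at 36.7, 86.7, 123, 119 and 103 CPM in knockout. Knockout replicate 1 was the lowest library of all, and the groups otherwise overlapped (log2 fold change -0.23, SE 0.28, adjusted p = 0.707 by edgeR). The same library had the lowest Rspo1 (0.925 CPM, where the other 9 had 2.59 to 9.29) and the highest Rspo2 (16.5 CPM, where the other 9 had 0.402 to 3.53). For Rspo1 5 of 5 knockout libraries lay under the mean of wild type (log2 fold change -0.90, SE 0.43, adjusted p = 0.387 by edgeR). For Rspo2 the log2 difference of 1.47 (SE 0.90, adjusted p = 0.469 by edgeR) turned to -0.46 without knockout replicate 1.

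The ubiquitin ligases that remove Frizzleds were low. Znrf3 differed by 0.42 on the log2 scale (SE 0.29, adjusted p = 0.506 by edgeR) at 4.89 ± 1.42 and 6.57 ± 2.13 CPM (SD, n = 5 each). Rnf43 had 6 to 24 counts per library and was not tested.

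Sfrp1, a secreted protein that binds Wnts, had the highest mean per kilobase, within error of Ctnnb1, and was among the most variable members. It was at 260.0, 756, 108, 419 and 201 CPM in wild type and at 1771, 316, 589, 609 and 300.0 CPM in knockout. Wild type alone spanned 108 to 756 CPM, and only knockout replicate 1 lay above that range (log2 fold change 1.04, SE 0.57, adjusted p = 0.433 by edgeR, and 0.37 without knockout replicate 1). Sfrp4 was also highest in that library (6.44 CPM, where the other 9 had 0.214 to 1.17), and its log2 difference of 1.16 (SE 0.76, adjusted p = 0.496 by edgeR) turned to -0.41 without it.

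Apcdd1, a membrane inhibitor of Wnt signalling that is itself induced by it, was at 3.59, 3.50, 2.30, 4.21 and 2.52 CPM in wild type and at 3.56, 4.96, 7.58, 5.88 and 5.84 CPM in knockout. Knockout replicates 2 to 5 lay above all wild-type libraries, and here it was replicate 1 that overlapped (log2 fold change 0.78, SE 0.24, unadjusted p = 0.0070 and adjusted p = 0.284 by edgeR). Dkk3, an abundant Dkk relative, had a log2 fold change of -0.0049 (SE 0.15) and Dkk2, which binds Lrp5 and Lrp6, -0.32 (SE 0.34), with edgeR adjusted p-values of 0.990 and 0.658. Sfrp2 (0 to 9 counts per library), Sfrp5 (0 to 2) and Dkk1 (0 to 2) were not tested.

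Inside the cell no member had an unadjusted p under 0.05. Ctnnb1, which encodes beta-catenin, was at 326, 389, 279, 384 and 326 CPM in wild type and at 382, 419, 439.7, 392 and 274 CPM in knockout, with overlap (log2 fold change 0.16, SE 0.15, adjusted p = 0.612 by edgeR); the gene Ulk4 overlaps it, so some reads may be shared. Axin1, a scaffold of the complex that degrades beta-catenin, had the smallest SE of the 40 members. It was at 46.3, 47.6, 45.8, 50.2 and 51.3 CPM in wild type and at 48.6, 48.3, 54.0, 48.6 and 54.5 CPM in knockout, with overlap (log2 fold change 0.07, SE 0.09, adjusted p = 0.693 by edgeR).

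Axin2 and Lef1 had few reads. Axin2, the common readout of beta-catenin activity, had 8, 6, 2, 19 and 5 counts in wild type and 16, 11, 11, 7 and 3 counts in knockout, at most 0.910 CPM, and Lef1 had 2, 1, 0, 3 and 9 and 0, 4, 2, 0 and 1 counts. Both overlapped between groups and were too low to be tested. Nkd1 and Nkd2, which bind Dishevelled, had log2 fold changes of 0.38 (SE 0.39) and -0.17 (SE 0.29), and Nkd1 was highest in wild-type replicate 4 (26.4 CPM). With single libraries left out Nkd1 ranged from 0.19 to 0.94, the latter without that library, and Nkd2 from -0.38 to -0.03. Tcf7l1 and Tcf7l2 were the main TCF factors (5.50 and 2.66 CPM per kilobase, Tcf7 0.593 and Lef1 0.0109), and their log2 fold changes were 0.12 (SE 0.15) and -0.09 (SE 0.12), with edgeR adjusted p-values of 0.705 and 0.732.

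**Figure D4:**
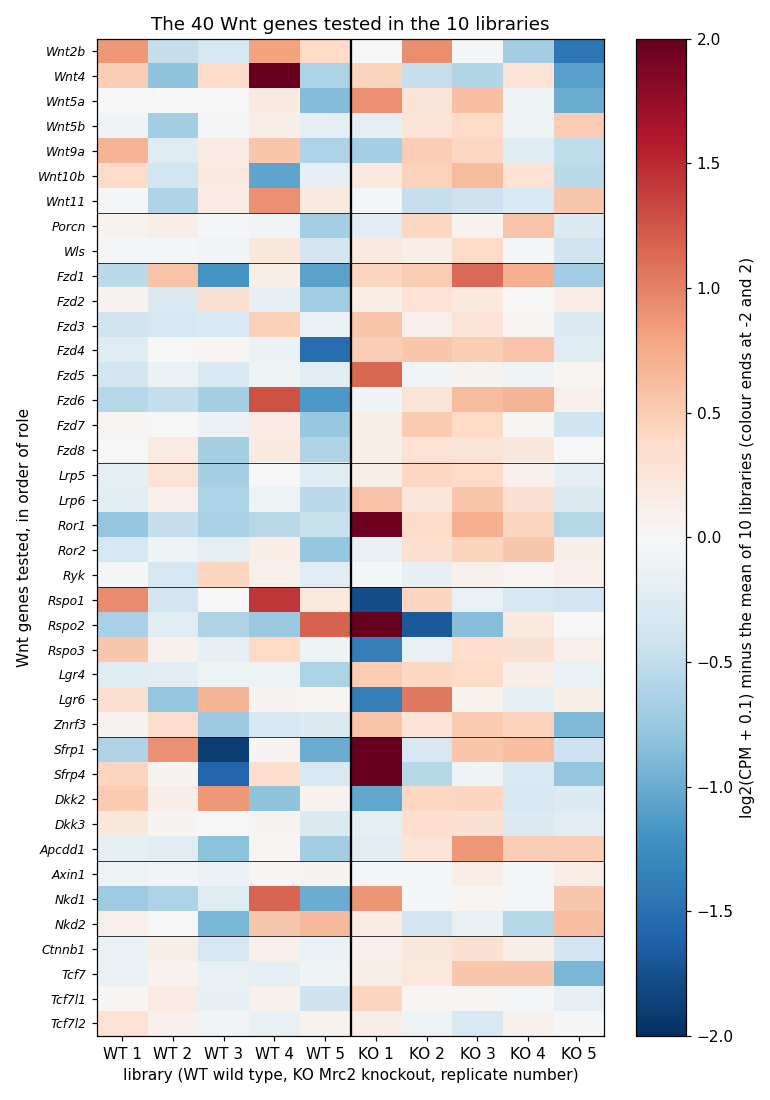
Colour map of log2(CPM + 0.1) minus the mean of the 10 libraries for the 40 Wnt genes tested (rows, in order of role) in each library (columns; wild type left, Mrc2 knockout right); colours end at -2 and 2. Knockout replicate 1 is high for Ror1, Rspo2, Sfrp1 and Sfrp4 and low for Rspo1 and Rspo3, and wild-type replicate 4 is high for Wnt4, Fzd6, Rspo1 and Nkd1.

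Leaving out 1 library moved the log2 fold change of 33 of the 40 members by over 1.5 times in at least 1 case, and the 7 others were Fzd1, Fzd4, Lrp6, Ror2, Lgr4, Znrf3 and Apcdd1. Such a ratio is passed easily by changes near 0, as for Ryk and Lgr6, which 9 libraries each moved. The share over all genes was not computed, so this count says nothing particular about the members. Knockout replicate 5 was the lowest of its group for 21 of the 40 tested genes, and wild-type replicate 5 for 13. These 2 libraries had the fewest fibroblast marker counts of their groups (22686 and 15805 CPM) and the most leukocyte marker counts (6024 and 11175 CPM), whose part in the Wnt values was not tested. Few genes carried these sums, with Lyz2 at 80.9% to 90.8% of the leukocyte sum in every library. Gene by gene, wild-type replicate 5 was the highest of its group for 7 of 8 leukocyte markers and the lowest for 3 of 10 fibroblast markers. Knockout replicate 5 was the highest for 3 of 8 leukocyte markers, and among fibroblast markers the lowest for 6 and the highest for Thy1, Vim and Tcf21. Knockout replicate 1 was the highest of its group for 14 genes and the lowest for 9, and wild-type replicate 4 the highest of its group for 15. Leaving out knockout replicate 5 raised the number of members with an unadjusted p under 0.05 from 7 of 40 to 12 of 41, all higher, while over all genes 14.7% were then higher and 14.7% lower at that p.

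Outside the 52 genes, most other Wnt pathway genes tested were also above 0. Of 62 other genes (remaining ligands, Dishevelled, the degradation complex, cofactors and planar polarity genes) 45 were tested, 37 were above 0 and 8 below, with a median of 0.21, and 0 passed; 8 had an unadjusted p under 0.05 as higher and 1 as lower (20% in all, where 13.3% of all genes did). The 1 was Dact2, a Dishevelled-binding protein, at 0.934, 1.42, 1.39, 1.15 and 1.90 CPM in wild type and at 0.411, 0.402, 0.636, 0.427 and 0.748 CPM in knockout. It was the 1 tested gene of the list with no overlap and the 1 that DESeq2 called, against 2.05% and 1.69% of all genes. The ligand Wnt10a, untested with 0 to 16 counts per library, also had no overlap in CPM. It was at 0.0958 to 0.707 CPM in wild type and at 0 to 0.0948 CPM in knockout. Wild-type replicate 4 and knockout replicates 1 and 4 each had 2 counts, under the floor of 3, so only library size parted them. The 2.05% covers tested genes and is no measure for Wnt10a. The log2 fold change of Dact2 was -1.38 (SE 0.30, adjusted p = 0.208 by edgeR, DESeq2 adjusted p = 0.00959, and 0.0477 by edgeR without knockout replicate 5). The next were Invs, a switch between Wnt branches (0.55, SE 0.20), Dact1, a relative of Dact2 (0.83, SE 0.33), and Bcl9, a coactivator of beta-catenin (0.50, SE 0.20), with edgeR adjusted p-values of 0.343 to 0.349.

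Textbook targets of beta-catenin went both ways. Of 30 targets 17 were tested, 10 above 0 and 7 below, with a median of 0.29, and 0 passed; of the 20 that are not among the 52 genes 12 were tested, 6 above 0 and 6 below, with a median of 0.03. Ephb2, an ephrin receptor, was at 54.8, 68.8, 53.3, 50.5 and 49.3 CPM in wild type and at 106, 93.9, 85.5, 88.9 and 69.1 CPM in knockout. It was the 1 tested target with no overlap and the 1 that DESeq2 called, against the same 2.05% and 1.69% of all genes. Its log2 fold change was 0.68 (SE 0.13, adjusted p = 0.143 by edgeR, DESeq2 adjusted p = 0.00125, and 0.0329 by edgeR without knockout replicate 5). The next by p were Apcdd1, described above, Sox9, a transcription factor (1.09, SE 0.43), and Wisp1, a secreted matrix protein (0.45, SE 0.22), with edgeR adjusted p-values for the latter pair of 0.349 and 0.400. In 3 of the 5 knockout libraries Sox9 was at 7.58 to 10.8 CPM, in replicate 1 at 31.5 CPM and in replicate 5 at 5.19 CPM, against 3.70 to 8.72 CPM in wild type.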

How the data were processed

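The authors deposited raw read counts per Ensembl gene in 1 table with its gene lengths and coordinates. Poly(A) selection is given per the labels' protocols, and mm10, STAR 2.5, HTSeq 0.6.1 and DESeq2 2 appear, without their roles, in the submitters' processing notes. The sources used here give no annotation release and no strand setting. Groups and replicate numbers came from the titles. The counts were fitted over the whole table with edgeR 4.0.16 in R 4.3.3 (filterByExpr, TMM, quasi-likelihood F test, no covariate), leaving 14360 genes, and p-values were adjusted over all of them by Benjamini-Hochberg. A standard error (SE) is the size of the log2 fold change over the root of its F. CPM used TMM-scaled library sizes. DESeq2 1.42.0, limma-voom (limma 3.58.1), other scalings and filters, a replicate block and each library left out were alternatives. The fit was tested on data simulated with known changes, where it called 14% of 1.5-fold and 62% of 2-fold changes. Of its 134 calls there, 4 were false. Changes of the size seen in most members could thus be missed. No libraries agreed within sampling noise (lowest chi-square per degree of freedom 17.5). The floor of 3 counts covers counting error only.

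The members, lists and alternatives were chosen with earlier results of these data known, and support no independent statement. Values in every library are given for members with an unadjusted edgeR p under 0.05, a DESeq2 call or no overlap, for the most abundant member of each role per kilobase, and for Axin2, Lef1 and Ctnnb1; of other lists up to 4 genes with the smallest p are named. Some member details outside this rule were chosen after their values were seen. List symbols Ccn4, Ccn5 and Tle5 were matched through RefSeq synonyms to Wisp1, Wisp2 and Aes. RefSeq promoter windows were found for 34 of the 52 genes.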

Additional observations from a re-analysis of the deposited data

Results flagged for a closer look

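In each group of 5 libraries a tested member was marked when its highest or lowest library lay apart from the nearest other by more than 0.710 of the group's range (Dixon's 95% value). Of 80 such groups 12 were marked. About 1 in 20, or 4, would be marked for independent values with a normal spread. The values here are unlogged CPM and the genes share the same 10 libraries, so 12 cannot be set against 4. Knockout replicate 1 was the highest of its group for Fzd5 (54.3 CPM, others 23.3 to 25.5), Rspo2 (16.5 CPM, others 0.402 to 1.75), Sfrp1 (1771 CPM, others 300.0 to 609) and Sfrp4 (6.44 CPM, others 0.449 to 0.795). Wild-type replicate 4 was the highest of its group for Wnt4 (10.1 CPM, others 1.36 to 3.50), Fzd3 (7.14 CPM, others 3.83 to 4.64), Fzd6 (21.6 CPM, others 3.98 to 6.41) and Nkd1 (26.4 CPM, others 5.88 to 9.96). Wild-type replicate 5 was the lowest of its group for Wnt5a (14.5 CPM, others 26.4 to 30.1) and Fzd4 (16.7 CPM, others 40.9 to 49.0) and the highest for Rspo2 (3.53 CPM, others 0.862 to 1.30). Knockout replicate 5 was the lowest of its group for Fzd4 (40.9 CPM, others 68.1 to 71.5).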

How the results depend on the processing

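Of 716 values for the 40 tested members under 18 alternatives, 688 kept their sign and their side of the threshold. Ror1 passed in 3 fits, with log2 fold changes of 1.40 by DESeq2, 1.60 without knockout replicate 5 and 1.09 with both knockout replicates 1 and 5 left out (adjusted p = 0.0469 by edgeR), a fit added after the data were seen. In that added fit 2 of all 14744 genes tested passed. The count of members called was therefore 1 in these 3 fits, 0 in the other 15, and 0 to 1 with single libraries left out. Over the whole table the count of 2 became 243 by DESeq2, 1 by limma-voom, 0 with the replicate block and 1 to 203 with single libraries left out. Both other lists had 1 call by DESeq2 and 0 to 1 with single libraries left out. With the replicate block the call of Mrc2 was lost (log2 fold change -1.78, edgeR adjusted p = 0.0542). Same-numbered deviations had correlations of -0.236 to 0.376. Replicate 5 (0.376) was the only number whose own partner matched best, so the numbers did not pair the libraries throughout. Signs turned for 7 members. Ryk was at 0.0035 without a low-count filter, 0.013 by limma-voom, 0.017 with the replicate block and -0.088 to 0.12 with single libraries left out. Lgr6 was at -0.014 with no scaling factor, -0.10 by limma-voom, -0.13 with the replicate block and -0.40 to 0.24 with single libraries left out. Dkk3 was at 0.0032 without the filter, 0.12 without knockout replicates 1 and 5 and -0.10 to 0.063 with single libraries left out. Without knockout replicates 1 and 5, Wnt9a was at 0.073, Rspo3 at 0.0015, Rspo2 at -0.65 and Sfrp4 at -0.29, and the latter pair ranged from -0.46 to 2.04 and from -0.41 to 1.39 with single libraries left out. The cause was not tested. Members with an unadjusted p under 0.05 numbered 6 to 12 as higher and 0 to 2 as lower over all fits. The share of all genes at that p ran from 4.28% to 14.7% as higher and from 3.62% to 14.7% as lower. Both shares were largest without knockout replicate 5, the fit with 12 members.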

Other observations

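Mrc2 lies on chromosome 11 (mm10, 105292643 to 105351139), as do 6 of the 52 genes. The nearest were Fzd2 at 2.68 megabases (chromosome 11, 102604396 to 102608058; log2 fold change 0.27) and Axin2 at 3.57 megabases (chromosome 11, 108920349 to 108950783), which was too low to be tested. Rnf43, Wnt9a, Tcf7 and Znrf3 lay 17.6 to 99.8 megabases away.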
